A study of Mus musculus with 24 samples.

Results

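The spleen 4 weeks after myocardial infarction (MI) was compared with the spleen 1 week after MI in CD11b+ cells from 3 genotypes of mouse. The comparison was chosen by its labels and took in 6 arrays of the 24 in the series. These were 3 arrays at 1 week and 3 at 4 weeks, paired by genotype into a WT pair, an HDC-KO pair and a STAT6-KO pair. HDC-KO mice lack histidine decarboxylase, the enzyme that makes histamine, and STAT6-KO mice lack the transcription factor STAT6. All 3 genotypes were on a Balb/C background, and all groups shared the infarction, so neither time point was an uninjured control. Each array held RNA of CD11b+ cells pooled from 5 mice labelled male, so a genotype at a time point was 1 pool and 1 array, and the spread between mice within a group was not measured. Spleen arrays at 2 weeks and from controls without MI (WT and STAT6-KO) were used to place the levels. WT and HDC-KO bone marrow arrays at 1 and 4 weeks, 4 arrays in all, served as the comparison tissue.

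CD11b (Itgam) is an integrin chain carried by neutrophils, monocytes, macrophages and natural killer (NK) cells. The spleen holds a reserve of monocytes that are released after infarction, and it can also make myeloid cells itself from progenitors during the first days after injury. Neutrophil precursors pack primary granules with elastase, proteinase 3 and myeloperoxidase while they still divide, and these transcripts are shut off as the cell matures. Immediate early genes such as Fos, Jun and the Egr and Nr4a families code for transcription factors that are induced within minutes of a stimulus without new protein synthesis. Interferon-induced genes such as the Ifit and Oas families are switched on together by type I and type III interferons.

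Levels are log2 signals relative to the 75th percentile of each array, so that a value of -5.16 lies that many log2 units below the percentile, and a level was compared only with the same probe on other arrays. The 75th percentile signal stayed at 1587 and 1605 in the WT pair, and it went from 2461 to 1177 in the HDC-KO pair and from 1751 to 927.9 in the STAT6-KO pair. Between 70.4% and 78.3% of the spots lay well above background on the 6 arrays, with the lowest share in WT at 1 week. Hdc was at 1.76 and 1.93 on the HDC-KO arrays against 4.73 and 4.83 on the WT arrays. Stat6 was less clear. On 1 of its 3 probes the STAT6-KO level was -1.59 at 1 week but 0.20 at 4 weeks, against 0.63 and 1.08 in WT, on another it was -0.98 and 0.73 against 0.26 and 1.29, and on the tested probe it was 2.34 and 2.12 against 2.79 and 2.90. The STAT6-KO level was below that of WT on all 3 probes at both times, but on the first 2 of them the gap was smaller at 4 weeks. Xist, the RNA that coats the inactive X chromosome of females, was at -1.22 and -0.74 on the HDC-KO arrays on its probe with 2 of 6 arrays above background, which goes against the label of male mice. The Y-linked gene Eif2s3y went from 1.42 to -0.16 in that pair, against 2.06 to 2.16 in WT and 2.35 to 1.8 in STAT6-KO. Ddx3y, also Y-linked, went from -1.73 to -2.48 in HDC-KO. The mix of sexes may therefore differ between the HDC-KO pools, and in that pair it cannot be told apart from time. On the same Xist probe the STAT6-KO control was at -2.06, against -8.96 in the WT control and -8.99 and -8.51 in the STAT6-KO pair. This too goes against the male label, although Eif2s3y was at 1.96 in that control, so the STAT6-KO control may differ in sex from its pair. In every genotype the 1-week and 4-week arrays sat on the same slide at positions 2 and 4, and time cannot be told apart from position.

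At an adjusted p under 0.05 (limma with genotype as a block, 25701 genes tested), 4149 genes were higher at 4 weeks (16.1%) and 804 were lower (3.13%). The p-values measure the spread of the 3 pair differences between genotypes. The median change of all genes tested was 0.19 on the log2 scale, and it lay between 0.17 and 0.21 in the 3 pairs. Beyond 2-fold in all 3 pairs, 1634 genes were higher (6.36%) and 105 were lower (0.409%). At any size, 10773 were higher in all 3 pairs (41.9%) and 4863 lower (18.9%). Of all calls 83.8% were higher, but this split followed the scaling: it was 60.6% after quantile normalization and 40% after median scaling, which moved the median of all genes to -0.18. The number of calls depended on the WT pair, since without it no gene passed, with 7615 genes at an unadjusted p under 0.05. Without the HDC-KO pair 1727 genes were higher and 194 lower, and without the STAT6-KO pair 4575 and 1117. With the normexp background no gene passed either, against 1709 at an unadjusted p under 0.05. In both of these settings the count of genes called in every list below was therefore 0.

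**Figure D1:**
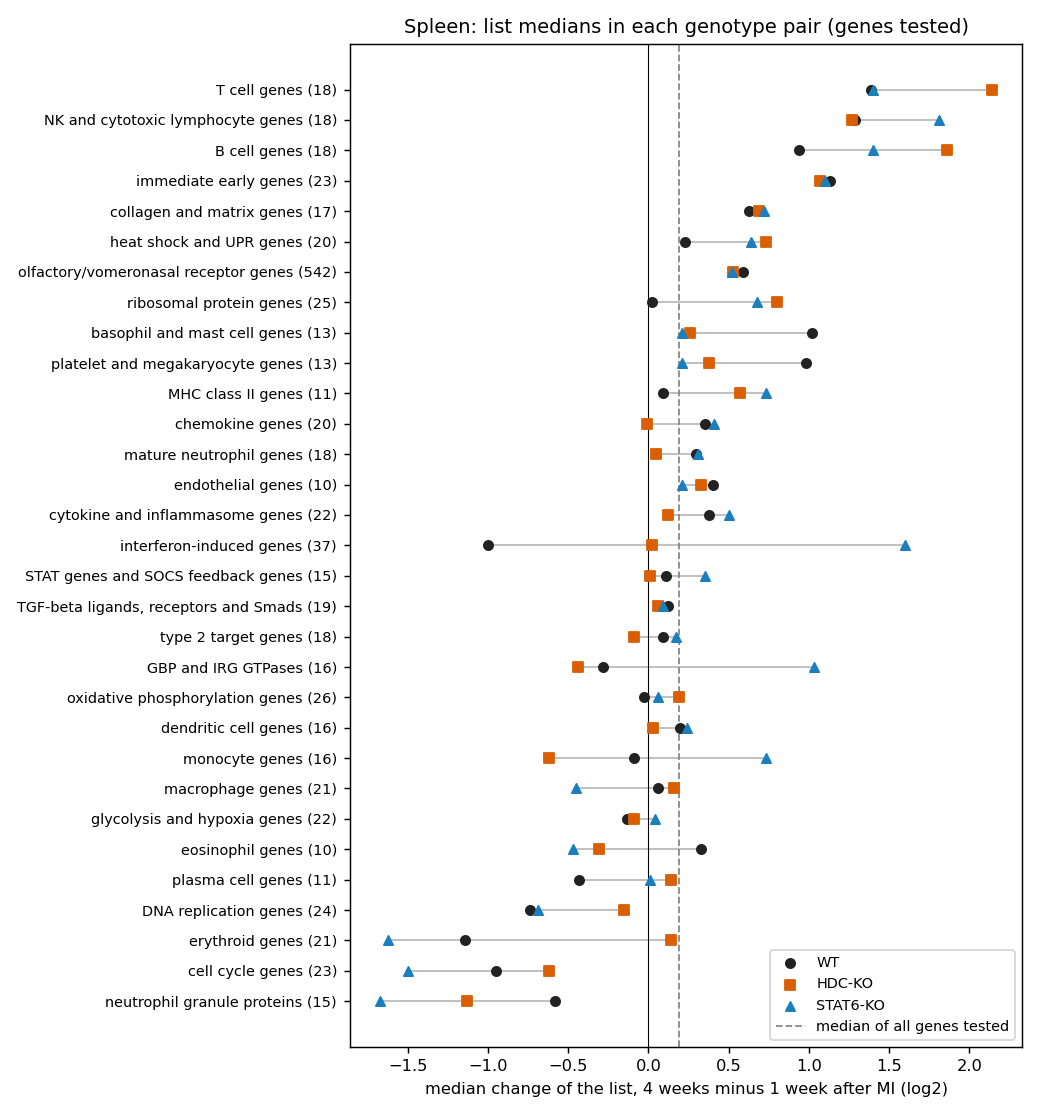
Median change of each gene list from 1 to 4 weeks after MI in spleen (log2, x axis), with 1 point for each genotype pair and the number of genes tested in brackets; the dashed line marks the median of all genes tested, 0.19. T cell, NK and B cell medians are at 0.94 or above in all 3 pairs, neutrophil granule and cell cycle medians are below 0 in all 3, and the interferon list runs from -1 in WT to 1.6 in STAT6-KO.

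Lymphocyte genes had the highest median changes of the lists. Counts for the T cell, B cell and NK lists are to be read beside the 16.1% of all genes called higher. Of 18 T cell genes, 15 rose and none fell, with a median change of 1.68 (WT 1.39, HDC-KO 2.14, STAT6-KO 1.4). Cd3g, a chain of the T cell receptor complex, was at -2.14, -0.95 and -0.43 at 1 week in WT, HDC-KO and STAT6-KO and at 0.50, 1.54 and 0.91 at 4 weeks. Its mean rise was 2.16 ± 0.30 (SE, adjusted p = 0.0131), or 4.46-fold. Tcf7, a transcription factor of T cell development, went from -2.27, -1.03 and -0.85 to 0.14, 1.57 and 0.43 (2.09 ± 0.30, adjusted p = 0.0141). Its partner Lef1 rose by 1.93 ± 0.28 (adjusted p = 0.0152). Cd247, the zeta chain of the receptor, had the largest mean change of the list, 2.83 ± 0.55 (adjusted p = 0.0285), but only 1 of its 3 arrays at 1 week was above background, and its level there spread from -8.99 to -6.48. The count was 16 of 18 without the STAT6-KO pair, 14 without the HDC-KO pair and 11 without genotype as a block.

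B cell genes moved the same way, with 14 of 18 higher, none lower and a median change of 1.38. Vpreb3, a surrogate light chain relative of B cell precursors, was at -1.07, -0.50 and -0.42 at 1 week and at 0.85, 2.50 and 1.75 at 4 weeks, a rise of 2.37 ± 0.26 (adjusted p = 0.0085) or 5.16-fold. Cd79a, a signalling chain of the B cell receptor, rose 4.54-fold from -2.92, -3.26 and -2.79 to -1.34, -0.23 and -0.84. Tnfrsf13c, the BAFF receptor, rose 3.87-fold and Fcrla, a protein of the B cell secretory pathway that binds immunoglobulin, 3.58-fold. For each of these 4 genes the lowest 4-week array lay above the highest 1-week array, which their choice by the size of the mean change favours. The share of all genes without such overlap was not counted. Only Cd22, an inhibitory receptor, had a negative mean change (-0.16, adjusted p = 0.579). The B cell count fell to 6 without the HDC-KO pair and to 7 without genotype as a block, and was 15 without the STAT6-KO pair.

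NK and cytotoxic lymphocyte genes gave 14 rises of 18 and no fall, with a median of 1.44. Eomes, a transcription factor of NK and memory CD8 T cells, went from -2.55, -2.19 and -3.31 to -0.55, 0.08 and -1.06, a rise of 2.17 ± 0.17 (adjusted p = 0.0059) or 4.5-fold. Cd160, a receptor of NK and CD8 T cells, rose 5.22-fold. The granule proteases granzyme K (Gzmk) and granzyme A (Gzma) rose 3.72-fold and 3.52-fold. Gzma was the gene of these with the widest 1-week spread, at 3.10, 2.99 and 1.60, while its 4-week arrays lay together at 4.34, 4.61 and 4.18. Without the HDC-KO pair 10 of the 18 rose, without the STAT6-KO pair 14 and without genotype as a block 11.

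The medians of the 3 lymphocyte lists were lowest at 1 week in each genotype. The median T cell level was -0.07 in the WT control, -2.1 at 1 week, 0.21 at 2 weeks and -0.14 at 4 weeks, and 0.59, -0.84, -0.09 and 0.28 in STAT6-KO. B cell medians at 2 weeks (1.87, 2.32 and 2.21 in WT, HDC-KO and STAT6-KO) were above those at 4 weeks (0.88, 2.21 and 1.9) in all 3 genotypes. In bulk RNA, more cells of a type and more RNA per cell cannot be told apart. Itgam itself was at 4.83, 4.31 and 4.23 at 1 week and 4.52, 3.87 and 3.52 at 4 weeks on the tested probe, lower in every pair (-0.49 ± 0.17, adjusted p = 0.104), while its other 2 probes had no common direction. Monocyte and macrophage lists had medians near 0 (-0.02 and -0.05), with 2 of 16 and 0 of 21 genes higher and 0 and 1 lower. The part of cell composition in the lymphocyte rise was not tested.

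**Figure D2:**
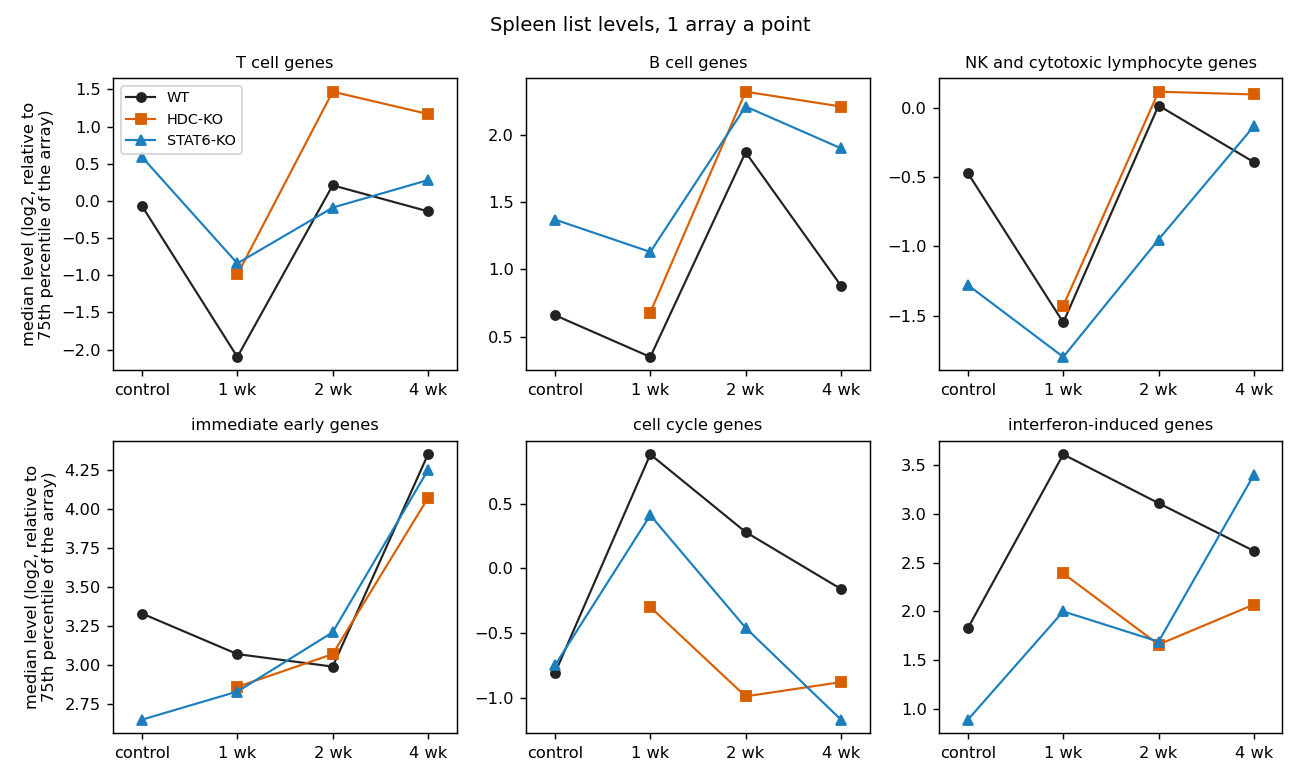
Median level of 6 gene lists on each usable spleen array (log2 relative to the 75th percentile of the array) in controls and 1, 2 and 4 weeks after MI; time points are evenly spaced on the axis, and HDC-KO has no control point. T cell levels dip at 1 week (WT -2.1), immediate early levels are highest at 4 weeks (4.07 to 4.35), and cell cycle levels are highest at 1 week (WT 0.88).

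Immediate early genes were higher at 4 weeks, above the list medians of the controls and of the earlier times. Of 23 genes 15 rose and none fell, with a median of 1.07 that was nearly equal in the 3 pairs (1.13, 1.07 and 1.1). Over all genes 16.1% were higher. The median level lay between 2.65 and 3.33 in controls, at 1 week and at 2 weeks, and at 4.35, 4.07 and 4.25 at 4 weeks. Nr4a3, an orphan nuclear receptor, was not well above background on any array at 1 week and was on all 3 at 4 weeks (-4.57, -2.65 and -5.57), so it was at least 5.16-fold higher. It is counted among the 15, but it passed the filter only through its 4-week arrays, so its p is not given. Its relative Nr4a2 went from -2.54, -2.21 and -2.55 to -0.21, 0.48 and -1.09, or 4.49-fold (2.17 ± 0.28, adjusted p = 0.011). The zinc finger factors Egr2 and Egr3 rose 3.4-fold and 3.39-fold. Egr2 rose least in STAT6-KO, from 1.05 to 1.89, where its 1-week level was already the highest. Jun and Fos, named here after their values were seen, differed in outcome: Jun rose 2.41-fold (1.27 ± 0.16, adjusted p = 0.0111), and Fos changed by 0.80 ± 0.20 (adjusted p = 0.0515). Without the HDC-KO pair 8 of 23 passed, 15 did without the STAT6-KO pair and 11 without genotype as a block.

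The promoter of Nr4a3 is shown because it is the immediate early gene with the largest change. The window holds the 250 bases before the RefSeq start (GRCm38.p6, chr4:48045055-48045304 on the plus strand for Nr4a3).
Nr4a3: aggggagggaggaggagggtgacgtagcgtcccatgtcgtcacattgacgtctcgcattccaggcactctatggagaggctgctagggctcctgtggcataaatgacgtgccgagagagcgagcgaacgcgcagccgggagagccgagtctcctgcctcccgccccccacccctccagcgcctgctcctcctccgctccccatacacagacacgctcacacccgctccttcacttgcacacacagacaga
The full cAMP response element (TGACGTCA, a palindrome and so read alike on both strands) was not found in it, and none is in capitals. Shorter forms were not searched, and the stretch TGACGT does occur in this window, so it may still hold partial elements. The full letters occurred in 2 of the 19 list members with a RefSeq promoter, Btg2 and Dusp1 (10.5%), and in 1.62% of all 27025 promoter windows of this length.

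Of 22 cytokine and inflammasome genes 4 rose and none fell, a share near the 16.1% of all genes, and the median of 0.25 was near that of all genes. The count was 7 without the STAT6-KO pair and 2 without the HDC-KO pair. The 4 genes were Ptgs2, the inducible cyclooxygenase (4.25-fold, adjusted p = 0.0481), the inflammasome sensor Nlrp3 (3.57-fold; 1.83 ± 0.16, adjusted p = 0.00655), Il27 (2.87-fold) and Il1rn, the interleukin 1 receptor antagonist (2.84-fold). Nlrp3 was at -1.27, -0.97 and -1.41 at 1 week and at 0.48, 1.00 and 0.38 at 4 weeks. Of 20 chemokine genes, Cxcl1, Cxcl12 and Ccl3 rose (3.24-fold, 2.66-fold and 2.54-fold) and Cxcl14 fell, again a share of rises near that of all genes, with 4 rises without the STAT6-KO pair and 1 without the HDC-KO pair. Cxcl2, a neutrophil attractant counted in the mature neutrophil list, rose 2.92-fold from 1.09, 1.81 and 1.15 to 3.03, 3.38 and 2.27. Among 20 heat shock and unfolded protein response genes 4 rose, also near the share of all genes. They were led by the endoplasmic reticulum chaperone Dnajb9 (2.15-fold), and none rose without the HDC-KO pair.

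Neutrophil granule genes fell. Of 15 genes 7 fell and none rose, with a median of -1.13 (WT -0.58, HDC-KO -1.13, STAT6-KO -1.67). Over all genes 3.13% were lower. Elane, neutrophil elastase, was at 3.29, 2.66 and 1.96 at 1 week and at 1.03, 0.47 and -0.92 at 4 weeks (-2.44 ± 0.21, adjusted p = 0.00635), 5.43-fold lower. Prtn3, proteinase 3, went from -0.66, -1.01 and -1.56 to -2.56, -3.28 and -3.66 (-2.09 ± 0.17, adjusted p = 0.00599). Fcnb, a ficolin of granulocyte precursors, and Ms4a3, a marker of granulocyte and monocyte progenitors, were 5.71-fold and 4.54-fold lower. In each of these the 3 arrays at 4 weeks were below the array of the same genotype at 1 week, as held for 18.9% of all genes. The others that fell were Mpo, Cd177 and Lcn2, of which Mpo is a primary granule protein and Lcn2 a protein of later granules. Further genes of later granules did not pass. Ltf (lactoferrin) changed by -0.29 (adjusted p = 0.413), Ngp by -0.15 and Camp by 0.50. The mature neutrophil list had a median of 0.3 with 1 rise and 1 fall among 18, the fall being Lrg1 (2.16-fold, adjusted p = 0.0299). At 2 weeks Elane was at 1.24, 0.36 and 0.43 and in the controls at 0.74 (WT) and 0.78 (STAT6-KO), all below the 1-week arrays. The granule count was 8 without the STAT6-KO pair, 4 without the HDC-KO pair and 2 without genotype as a block.

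Cell division genes were also lower. Of 23 cell cycle genes 14 fell and none rose, with a median of -1.09 (WT -0.95, HDC-KO -0.62, STAT6-KO -1.5). This count and that of the replication genes below stand beside 3.13% of all genes called lower. Bub1b, a spindle checkpoint kinase, was at -0.07, -1.18 and -0.91 at 1 week and at -1.61, -2.47 and -2.55 at 4 weeks (-1.49 ± 0.17, adjusted p = 0.0091), 2.81-fold lower. Cdca8, a subunit of the chromosomal passenger complex, was 2.67-fold lower, and Ube2c, the E2 enzyme of the anaphase-promoting complex, 2.53-fold. Tpx2, a spindle assembly factor, fell on the tested probe (-1.39 ± 0.16, adjusted p = 0.00923), but its other probe changed by 1.89, and its direction is uncertain. WT at 1 week was the highest array for the list, with a median level of 0.88 against -0.81 in the WT control, and HDC-KO at 1 week (-0.3) lay below WT at 4 weeks (-0.16), so that the groups overlapped in level while the median was lower at 4 weeks in each pair. Of 24 DNA replication genes 7 fell and 1 rose. Cyclin E1 and E2 (Ccne1, Ccne2) and thymidine kinase 1 (Tk1) were between 2.05-fold and 2.11-fold lower. Cdc45, part of the replicative helicase, was 2.31-fold higher (1.21 ± 0.24, adjusted p = 0.0306). The cell cycle count was 12 without the STAT6-KO pair, 5 without the HDC-KO pair and 0 without genotype as a block, and the replication count 3 and 2 without these pairs.

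The promoters of Bub1b, Cdca8 and Ube2c are printed because the list moved together and because promoters of G2 and mitotic genes are known for CCAAT boxes and cell cycle homology elements. Capitals mark the CCAAT box, searched by these letters on both strands, and the cell cycle homology element, searched likewise by the letters TTTGAA. The windows are chr2:118597961-118598210 on the plus strand for Bub1b, chr4:124936918-124937167 on the minus strand for Cdca8 and chr2:164769679-164769928 on the plus strand for Ube2c (GRCm38.p6, 250 bases before the start).
Bub1b: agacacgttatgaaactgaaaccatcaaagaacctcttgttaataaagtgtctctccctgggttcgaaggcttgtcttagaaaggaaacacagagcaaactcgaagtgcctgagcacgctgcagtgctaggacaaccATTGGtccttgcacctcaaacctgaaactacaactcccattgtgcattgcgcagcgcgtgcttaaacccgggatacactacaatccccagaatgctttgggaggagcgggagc
Cdca8: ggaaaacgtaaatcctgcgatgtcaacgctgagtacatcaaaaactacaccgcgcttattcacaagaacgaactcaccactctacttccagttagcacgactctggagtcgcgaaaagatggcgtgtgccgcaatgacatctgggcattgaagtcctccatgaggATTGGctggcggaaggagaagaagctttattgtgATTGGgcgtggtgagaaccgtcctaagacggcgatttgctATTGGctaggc
Ube2c: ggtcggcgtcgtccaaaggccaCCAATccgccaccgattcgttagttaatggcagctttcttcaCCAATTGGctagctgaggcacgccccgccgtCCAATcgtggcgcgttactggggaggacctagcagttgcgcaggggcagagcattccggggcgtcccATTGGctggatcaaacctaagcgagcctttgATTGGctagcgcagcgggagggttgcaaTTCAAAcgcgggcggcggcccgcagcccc
Bub1b held 1 CCAAT box, Cdca8 held 3 and Ube2c held 6, of which an adjacent pair overlap on opposite strands. Ube2c also held 1 cell cycle homology element. The CCAAT box was present in 16 of 20 list promoters (80%) against 34.5% of all promoter windows, and the homology element in 7 of 20 (35%) against 16.3%. Other members of the list with both motifs were Ccnb2, Cdc20, Cdk1, Kif11, Mki67 and Top2a.

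The largest single changes lay outside these lists. Fam13c, a gene of little known function, rose by 6.32 ± 0.20 (adjusted p = 0.0059), from -5.16, -4.66 and -4.75 to 0.87, 2.06 and 1.46, or 79.9-fold. Mbl2, a mannose-binding lectin of the complement system made mainly in liver, was at -8.25, -6.98 and -6.51 at 1 week, with 1 of 3 arrays above background, and at -1.19, -0.32 and -0.50 at 4 weeks. Azin2, an antizyme inhibitor of polyamine metabolism, went from -0.12, 0.19 and -0.01 to 2.98, 3.72 and 3.07 (9.4-fold). Nog, the BMP antagonist noggin, rose 10.1-fold, Slc10a7, a membrane transporter family member, 12.2-fold and Trhr2, a receptor for thyrotropin-releasing hormone, 19.3-fold. The others of the 12 were Dscaml1 and Amer3 (3.50 and 3.32 on the log2 scale) and the noncoding genes Rnu2-10 and Snhg17 (4.65 and 3.56). All 12 of the largest rises had every 4-week array above every 1-week array, which their ranking by the smallest pair difference favours. Controls lay close to the 4-week level for some of these genes and below it for others. Azin2 was at 3.02 in the WT control and 2.81 in the STAT6-KO control, and Fam13c at 1.2 and 0.41. Mbl2 was at -1.11 and -3.24 and Nog at 2.26 and 0.87, near WT at 4 weeks but below STAT6-KO at 4 weeks. Rnu2-10 was at -1.37 and -1.92 in the controls, below all 3 arrays at 4 weeks (0.47, 0.75 and 2.85). At 2 weeks Fam13c was at -4.39 in WT and -5.69 in STAT6-KO but at -0.92 in HDC-KO. Azin2 has a further probe, above background on all 6 arrays, that changed by -0.15. The further probes of Fam13c and Vmn2r62 were above background on none of the 6 arrays, and that of Dscaml1 on 1. Over all genes called higher, 535 had a further measured probe, and in 431 of them (80.6%) each such probe had the same sign. Of those called lower, 120 had one, and in 75 (62.5%) the sign was the same.

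**Figure D3:**
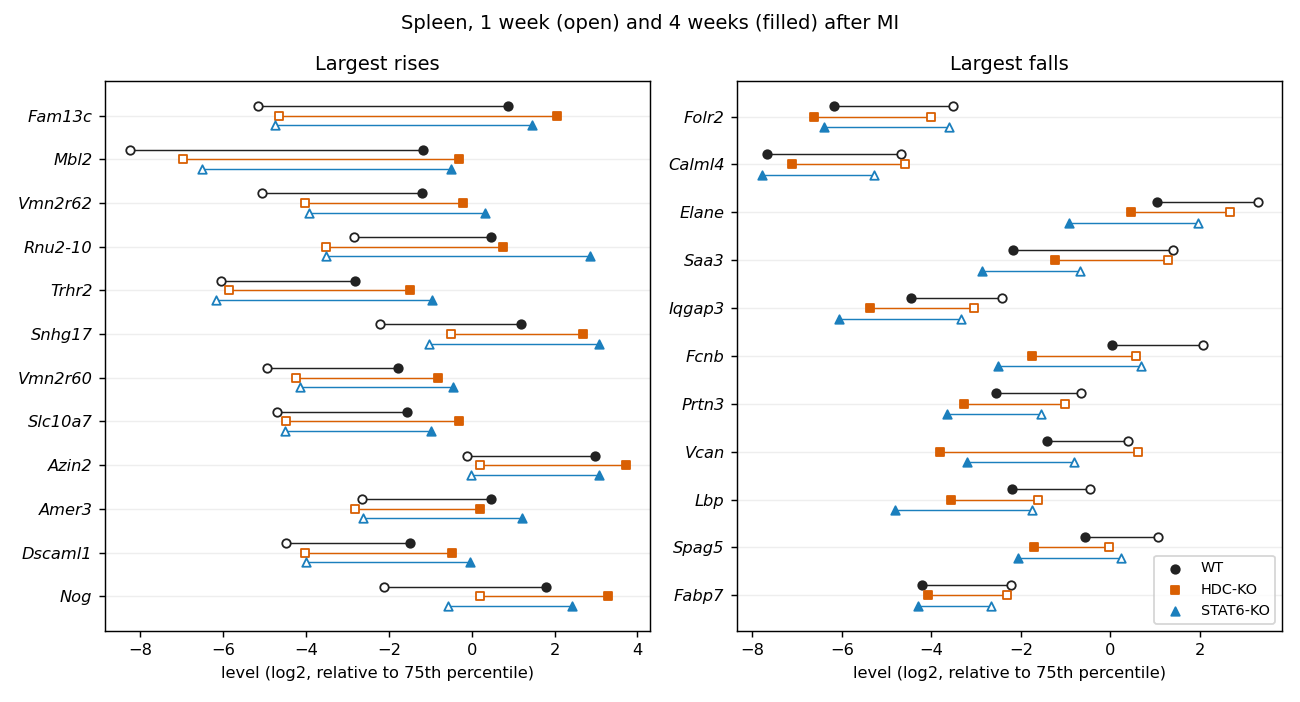
Levels of genes with the largest rises (left) and falls (right) from 1 week (open) to 4 weeks (filled) after MI in spleen (log2 relative to the 75th percentile of the array, x axis), 1 line for each genotype pair. Fam13c moves over 6 log2 units in every pair, the 1-week points of Mbl2 are above background on 1 of 3 arrays, and no fall of Folr2 or Elane exceeds 3.

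Vmn2r62 and Vmn2r60, vomeronasal receptors of the nose, were also among the 12, at 15.8-fold and 10.7-fold. Since these receptors have near-identical relatives that a probe could share, the family was counted as a whole, after these values were seen. Of 1336 olfactory and vomeronasal receptor genes on the array 542 were tested, 163 rose and 2 fell, with a median of 0.58 (0.59, 0.53 and 0.52 in the pairs), which was -0.28 with the normexp background. Over all genes tested 16.1% were higher. A dim gene could pass the filter through its 4-week arrays alone. With no filter on dim probes 134 of the 1336 rose, against 3019 of all 32451 genes. The family median was then 0.35 against 0.27 for all genes. The count was 179 without the STAT6-KO pair, 67 without the HDC-KO pair, 61 after quantile normalization and 90 after median scaling. Their median level was low throughout, between -5.41 and -4.95 at 1 week and between -4.92 and -4.41 at 4 weeks. In all, 156 genes were above background on none of the arrays at 1 week and on all 3 at 4 weeks, and 14 the reverse.

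Among the falls outside granule and cell cycle genes, Folr2, a folate receptor of tissue macrophages, dropped furthest in its weakest pair. It was at -3.51, -4.01 and -3.61 at 1 week and at -6.18, -6.63 and -6.41 at 4 weeks, with 1 of 3 arrays above background, a change of -2.70 ± 0.16 (adjusted p = 0.0059). Calml4, a calmodulin-like gene, was not well above background on any array at 4 weeks and was at least 2.8-fold lower. The acute phase gene Saa3 went from 1.40, 1.29 and -0.68 to -2.18, -1.23 and -2.86 (6.78-fold, adjusted p = 0.00873). Lbp, the lipopolysaccharide-binding protein, changed by -2.25 ± 0.30 and the matrix proteoglycan gene Vcan of monocytes by -2.88 ± 0.52. Vcan was uneven, with a change of -1.80 in WT and -4.44 in HDC-KO, and its 2 other measured probes changed by -0.14 and -1.26. Iqgap3 and Spag5, both tied to dividing cells, were 5.11-fold and 3.66-fold lower. The fatty acid binding protein gene Fabp7 went from -2.22, -2.32 and -2.68 to -4.22, -4.08 and -4.30.

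Dendritic cell, stromal and erythroid genes gave shorter lists, to be read beside the 16.1% of all genes called higher and the 3.13% called lower. Zbtb46, a transcription factor of conventional dendritic cells, rose 5.94-fold (2.57 ± 0.19, adjusted p = 0.0059), although its other probe changed by -0.04. Ccr7, the homing receptor of mature dendritic cells and naive T cells, went from 1.5, 1.54 and 2.08 to 3.16, 4.75 and 3.81 (4.61-fold). With Cd83 these were the 3 rises among 16 dendritic cell genes, near the share of all genes, and the list median was 0.01. The count was 4 without the STAT6-KO pair and 2 without the HDC-KO pair. Of 11 MHC class II genes 3 rose (H2-DMb2, H2-Eb2 and H2-Ob), while H2-Ab1, the chain of the classical molecule, changed by 0.55 (adjusted p = 0.15). None of the class II genes passed without the HDC-KO pair, and 3 did without the STAT6-KO pair. Collagen and matrix genes gave 8 rises of 17 and no fall, with a median of 0.71 that was -0.06 with the normexp background. The count was 8 without the STAT6-KO pair, 3 with 1 fall without the HDC-KO pair, and 3 after quantile normalization or median scaling. The rises were led by the proteoglycan Bgn, at -3.14, -2.59 and -2.95 at 1 week and -0.98, -0.16 and -0.42 at 4 weeks (2.37 ± 0.17, adjusted p = 0.0059), Sparc (3.21-fold) and Thy1 (2.72-fold), which T cells also carry. Kdr, the VEGF receptor 2, was the 1 riser of 10 endothelial genes (3.38-fold), and its other probe changed by -0.33. Erythroid genes had a median of -0.9 with 1 fall of 21, Klf1 (2.74-fold, adjusted p = 0.0454), and this median was -1.14 in WT, 0.14 in HDC-KO and -1.62 in STAT6-KO. Without the HDC-KO pair 11 of the 21 fell, with a median of -1.48, and without the STAT6-KO pair 2 fell. Platelet genes gave 3 rises of 13, basophil and mast cell genes 2 of 13, plasma cell genes 1 of 11 and eosinophil genes 0 of 10, with no fall. The platelet, basophil and mast cell, and plasma cell counts were 0 without the HDC-KO pair and 4, 5 and 1 without the STAT6-KO pair. Of housekeeping lists, 0 of 26 oxidative phosphorylation and 0 of 25 ribosomal protein genes passed, and 1 of 22 glycolysis genes fell, Aldoa (-0.68, adjusted p = 0.0421).

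Genes downstream of interleukin 4 and STAT6, and the TGF-beta pathway, were looked at because the study concerns STAT6. Arg1, arginase 1, a target of STAT6 in macrophages, was at -4.34, -4.55 and -3.35 at 1 week and -6.53, -5.96 and -7.96 at 4 weeks (-2.74 ± 0.62, adjusted p = 0.0395). Of the 4-week arrays 2 of 3 were above background, and the STAT6-KO level of -7.96 lay below the lowest signal well above background on that array, -6.33, so the size of the change is uncertain. Il4ra, the receptor chain upstream of STAT6, rose 2.98-fold from -1.26, -1.38 and -1.39 to 0.11, -0.45 and 1.04. Of 18 such genes 3 rose, near the share of all genes, and 1 fell. Without the STAT6-KO pair 4 rose and 2 fell, and without the HDC-KO pair 1 rose and 1 fell. Tgfb3 rose in every pair (1.07 ± 0.21, adjusted p = 0.0298), Tgfb1 changed by -0.78 (adjusted p = 0.135) and Tgfb2 by -1.21 (adjusted p = 0.162). Smad7, the inhibitory Smad, and Smad1 rose too, which made 3 of 19 TGF-beta genes, near the 16.1% of all genes. The count was 5 without the STAT6-KO pair, with 1 fall, and 0 without the HDC-KO pair. Il6 was higher in every pair, from -4.00, -3.54 and -3.91 to -2.64, -0.88 and -3.41, and did not pass (1.51 ± 0.42, adjusted p = 0.0632). Il18 was lower in every pair (-0.60 ± 0.18, adjusted p = 0.0732). Il1a went up in WT and HDC-KO and down in STAT6-KO (1.06, 0.35 and -1.76, adjusted p = 0.887). None of 15 STAT and SOCS genes passed, with mean changes of 0.45 for Stat4, 0.40 for Stat5b, 0.23 for Stat3, 0.00 for Stat5a and -0.19 for Stat2. Stat6 changed by -0.26 (adjusted p = 0.397) on the tested probe and by 1.25 and 0.89 on its 2 others.

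Interferon-induced genes had no common direction. None of 37 passed, and the median of 0.19 equalled that of all genes, but the 3 pairs differed in direction. Without the STAT6-KO pair 4 genes fell and the median was -0.51, and without the WT pair none passed and the median was 0.82. In WT 36 of 37 were lower at 4 weeks (median -1), in STAT6-KO all 37 were higher (median 1.6), and in HDC-KO 18 were lower and 19 higher (median 0.02). Ifit3, an antiviral protein of the Ifit family, was at 5.09 and 3.33 in WT, 2.63 and 2.81 in HDC-KO and 2.39 and 5.41 in STAT6-KO at 1 and 4 weeks. Oasl2, an oligoadenylate synthetase relative, went from 5.18 to 4.13 in WT, from 4.53 to 3.83 in HDC-KO and from 1.19 to 4.69 in STAT6-KO. Isg15, the ubiquitin-like modifier, was 5.83 and 5.61 in WT against 4.02 and 5.94 in STAT6-KO. The STAT6-KO array at 4 weeks and the WT array at 1 week were the highest of the 6 arrays for the list, with medians of 3.4 and 3.61. The other levels in STAT6-KO were 0.89 in the control, 2 at 1 week and 1.69 at 2 weeks, and those in WT were 1.83 in the control, 3.11 at 2 weeks and 2.62 at 4 weeks. Guanylate-binding proteins and related GTPases followed in part, with medians of -0.28, -0.44 and 1.03 and 14 of 16 higher in STAT6-KO. Iigp1, an immunity-related GTPase, was the 1 member that fell (-0.65, adjusted p = 0.0467). Its other probe changed by only -0.17 and went from -2.48 to -1.8 in STAT6-KO. In bone marrow the median change of the interferon list was -1.66 in WT and 0.58 in HDC-KO, so the WT fall was not confined to spleen. Each genotype had 1 pair in a tissue, so the difference between genotypes was not tested.

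**Figure D4:**
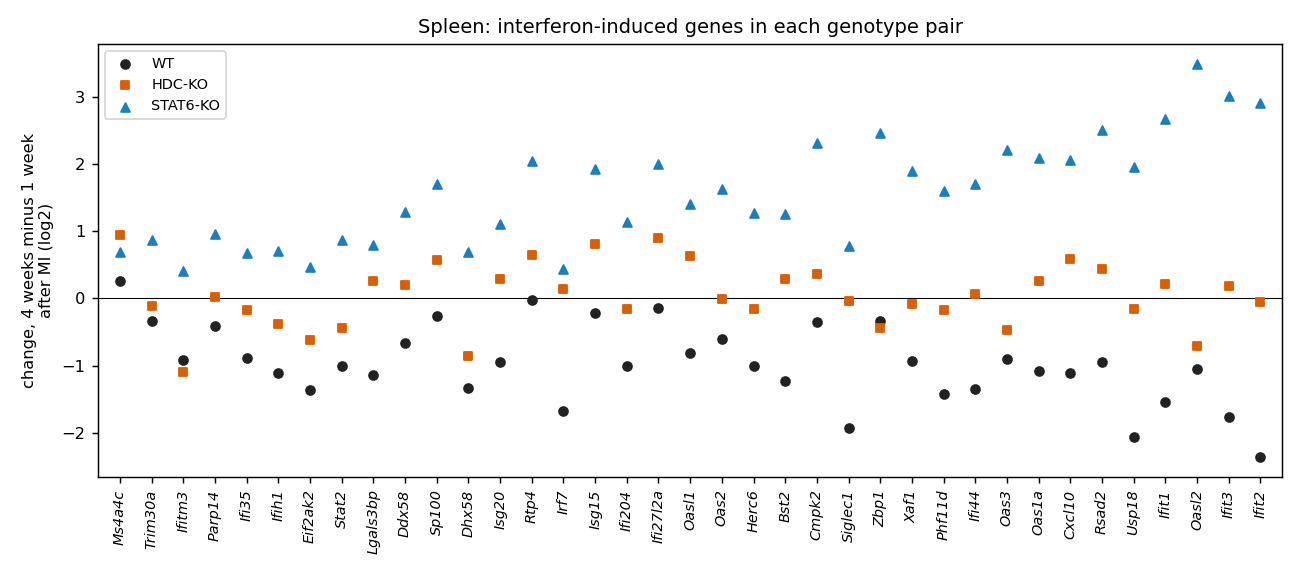
Change from 1 to 4 weeks after MI in spleen (log2, y axis) of 37 interferon-induced genes in the WT, HDC-KO and STAT6-KO pairs, ordered by the gap between STAT6-KO and WT. All STAT6-KO points lie above 0, and 36 of the 37 WT points lie below it.

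The Ifit3 promoter is shown as that of an interferon gene with a large gap between the pairs and marked response elements. The window is chr19:34583279-34583528 on the plus strand for Ifit3 (GRCm38.p6, 250 bases before the start), and capitals mark the interferon-stimulated response element, searched on both strands as the letters GAAA occurring again after any 2 bases.
Ifit3: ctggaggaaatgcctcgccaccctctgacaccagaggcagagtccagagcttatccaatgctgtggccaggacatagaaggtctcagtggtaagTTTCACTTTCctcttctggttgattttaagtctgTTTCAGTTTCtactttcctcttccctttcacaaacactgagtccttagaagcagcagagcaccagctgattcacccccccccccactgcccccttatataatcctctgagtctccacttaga
It held 2 matches. The element was present in 10 of 28 list members with a RefSeq promoter (35.7%) and in 3.04% of all windows, and no match lay in the Oasl2 and Ifit2 windows.

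Other genes went against the other pairs in 1 genotype only, and these are given as values with no test. In the STAT6-KO pair Crisp1, a secreted protein of the male reproductive tract, was at 2.38 at 1 week and -5.88 at 4 weeks, and the noncoding Pantr1 at 1.81 and -5.87, while both lay between -6.64 and -5.23 on the WT and HDC-KO arrays. Il17a, the T helper 17 cytokine, was higher at 4 weeks in WT (-6.08 to -3.30) and HDC-KO (-4.12 to -0.81) but not in STAT6-KO (-3.48 to -3.73). The complement factor Cfb was lower in WT and HDC-KO (-1.99 and -2.38) and higher in STAT6-KO (1.45). In WT alone Plcd3, a phospholipase C, went from -5.79 to -1.28, and Ly6a (Sca-1) from 3.20 to 0.47, against 2.97 in the other direction in STAT6-KO. HDC-KO stood apart with Slc38a5, an amino acid transporter, and Aqp1, the water channel of red cells, which changed by 1.05 and 0.96 against -1.59 and -1.2 in WT and -1.7 and -1.86 in STAT6-KO.

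The change in spleen was set against that in bone marrow, where WT and HDC-KO gave 2 pairs. Of 26717 genes tested in a limma interaction over 10 arrays 0% passed, with a smallest adjusted p of 0.0795 and 7130 genes at an unadjusted p under 0.05. With eBayes trend and robust settings 0 passed as well, but 891 did among 20932 genes measured on every array, 706 with a higher and 185 with a lower change in spleen. T cell genes had a median change of 0.08 in bone marrow against 1.68 in spleen, immediate early genes 0.25 against 1.07, and granule genes -0.24 against -1.13, whereas B cell genes changed by 2.66 against 1.38. No list member passed, so none of these differences is established. Folr2 had the lowest p among falls: it changed by 1.25 in bone marrow, a difference of -3.94 ± 0.34 (adjusted p = 0.0795). Mbl2 rose in bone marrow too, from -3.09 to -0.49 in WT and from -4.86 to -1.44 in HDC-KO, a difference of 3.57 ± 0.42. Of the others with the smallest p, Rph3a, a synaptic vesicle protein, changed by 2.51 in spleen and 0.24 in bone marrow, and the chemokine gene Cxcl14 by -1.33 and 2.05.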

How the data were processed

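CD11b+ cells of spleen or bone marrow were pooled from 5 mice for each array, RNA was extracted with TRIzol, labelled with Cy3 and hybridised to 1-colour Agilent mouse arrays. The authors deposited Feature Extraction 11.0.1.1 output, in which the processed signal is an intensity with the background already subtracted. GCRMA is named in the submitters' processing notes, without a role. For the comparison, log2 of this intensity was taken and the 75th percentile over non-control spots of each array was subtracted. Outlier spots were left out, and 84 tested genes lacked an array. Each gene was read from its probe with the highest mean over 22 arrays. Of 24 arrays, 2 with only part of their spots were not used.

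Genes well above background on at least 2 of the 6 arrays were fitted in limma 3.58.1 (R 4.3.3) with genotype as a block and Benjamini-Hochberg adjustment. Arrays of one genotype deviated together (correlations of 0.56, 0.49 and 0.23). The interaction with tissue used a block for each pair. The number of arrays limits the precision, and 3 pairs allow no exact sign-flip p below 0.25. A fold for a gene below background at one time is a lower bound against the lowest signal well above background. The 12 largest rises and falls were ranked by the smallest pair difference, and up to 4 genes a list by the mean change. Further names are those of the study and those with the smallest interaction p or the largest gap between genotypes. A gene among the largest falls is not reported here. Genes outside this rule were chosen after their values were seen. The comparison and the 30 gene lists were chosen with earlier results of these data known, and the receptor family after them. Alternatives covered background, scaling, filters, probes, block, test and each pair left out. Promoter sequences are those of RefSeq on GRCm38.p6. Figures were drawn with matplotlib 3.10.9.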

Additional observations from a re-analysis of the deposited data

Results flagged for a closer look

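The interferon-induced genes changed in opposite directions in 2 genotypes. Their median change from 1 to 4 weeks was -1 in the WT pair, where 36 of 37 genes were lower, and 1.6 in the STAT6-KO pair, where 37 of 37 were higher. In bone marrow their median change was -1.66 in WT and 0.58 in HDC-KO. Guanylate-binding proteins and immunity-related GTPases had medians of -0.28 in the WT pair and 1.03 in the STAT6-KO pair. Both stand out because the pairs moved opposite ways under the same contrast. With 1 pair for each genotype the difference was not tested. The 75th percentile signal of the STAT6-KO arrays was 1751 at 1 week and 927.9 at 4 weeks, and that of the WT arrays was 1587 and 1605. The part of signal strength in this difference was not tested.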

How the results depend on the processing

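Of 4149 genes called higher and 804 called lower, leaving out 1 pair gave between 0 and 4575 higher and between 0 and 1117 lower. Both were 0 without the WT pair, where 2 pairs are fitted. With normexp background both counts were 0. Median scaling gave 2252 and 3378 and quantile normalization 1798 higher. Without the genotype block they were 2241 and 299. The methods' Student test with a fold over 2 gave 2506 and 260, and 2 and 0 after Benjamini-Hochberg adjustment. Testing all genes gave 343 lower, and a fit to all spleen arrays 1460. The 1634 and 105 genes beyond 2-fold in all pairs were 292 and 49 with normexp, 943 and 257 with quantile normalization, 933 and 442 with median scaling, and between 2000 and 2329 and between 239 and 320 with 1 pair left out. In that last setting the rule covers only the 2 remaining pairs, so these counts could not fall. For the tissue interaction, 0 genes passed in each leave-out and 891 among genes measured on every array. All other counts stayed within 1.5 times. Over all alternatives 50 list medians moved by more than the spread between pairs and 198 did not.

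Of 97 named genes and 8 settings, direction reversed in 10 cases. With the normexp background Col6a1 changed by -0.061 and Cma1 by -0.02. Averaging probes gave 0.25 for Tpx2 and 0.63 for Stat6. With 1 pair left out Il1a ranged from -0.706 to 0.702, Stat2 from -0.726 to 0.217, Stat3 from -0.003 to 0.379 and Stat5a from -0.092 to 0.061. Median scaling gave -0.14 for Stat3 and -0.37 for Stat5a. Calls of 84 named genes were lost with the normexp background, of 86 without the WT pair and of 29 without the HDC-KO pair. The causes were not tested. Signal near background limits the genes that were unmeasured at one time.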
